A study of Mus musculus with 7 samples.

Results

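γδ thymocytes were compared at the DN4 and the DN3b stage in WT C57BL/6 mice, by single-cell counts of unique molecular identifiers (UMIs, tags that count single transcript molecules). The labels name both libraries by stage and by the surface γδ T cell receptor (TCR): DN4 γδ+ and DN3b γδ+. Thymi of mice aged 6 to 8 weeks had been pooled from both sexes, so 1 library is a mixture of animals. WT cells had been depleted of CD4+ and CD8+ cells with magnetic beads before sorting, and 500 B lymphocytes had been added to each library. A barcode, which stands for 1 droplet, was kept with at least 1000 detected genes, at most 10% mitochondrial UMIs and at most 1 UMI of the B cell genes Cd79a, Cd79b and Ms4a1 together. These limits kept 7353 of 11204 barcodes of DN4 γδ+ and 11663 of 14906 of DN3b γδ+. They were 19016 of the 66446 kept barcodes among 90016 in the 7 libraries of the series, the others being WT DN3a, WT DN3b γδ−, WT DN4 γδ− and 2 libraries of mice without the adaptor Lat. Each group had 1 library. No difference between the stages was therefore tested, and every interval covers counting error only.

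Double-negative (DN) thymocytes lack CD4 and CD8. At the DN3 stage they carry CD25, rearrange TCR genes and depend on Notch signals. Cells whose γ and δ chains pair put a γδ TCR on the surface, pass DN3b in a burst of division, lose CD25 and become DN4. Some γδ thymocytes take up a program for IL-17 (γδ17, with the transcription factors c-Maf and Sox13), and others one for IFN-γ and killing (γδ1, with T-bet and the receptor chain CD122). Mature cells leave the thymus along a sphingosine-1-phosphate gradient through the receptor S1P1, whose gene is switched on by Klf2.

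The kept barcodes held a median of 7179 UMIs and 2305 genes in DN4 γδ+ and of 15990 UMIs and 3659 genes in DN3b γδ+, with totals of 68370681 and 194621578 UMIs. Levels are given in CPM, the summed UMIs of a gene with the total of the library scaled to 1000000. CPM is a share of all UMIs, so a higher CPM need not mean more UMIs per barcode. Among barcodes of the added B cells the median was 3640.5 UMIs in DN4 γδ+ and 3736 in DN3b γδ+. The part of total RNA per cell in the ratios was not tested. Trdc, the δ chain constant region (chr14:54142851-54148868, mm10), had UMIs in 99.5% of kept barcodes of DN3b γδ+ and 99.8% of DN4 γδ+. A separate feature for the reporter version of the gene, which these WT mice lack, held 3 UMIs in each library and was not added. Il2ra, which encodes CD25, was at 30.4 CPM in DN3b γδ+ and 4.21 CPM in DN4 γδ+, against 612 CPM in WT DN3a. Since loss of CD25 defines DN4, that difference restates the sort. Of 10 T cell markers 9 were higher in DN4 γδ+, with sums of 7251 and 5146 CPM. Markers of B cells summed to 271 CPM in DN4 γδ+ and 110 CPM in DN3b γδ+, of which Ighm made up 225 and 77.4 CPM. The 5 natural killer (NK) cell markers summed to 16.7 and 0.313 CPM. Of these Ncr1 had no UMI and Klra8 had 1 and 0 UMIs, and Eomes and Klre1 gave nearly all of the sum, while cells with surface NK1.1 had been gated out. The erythroid sum was 0.453 and 2.39 CPM, the myeloid sum 128 and 119 CPM, nearly all of it Cst3, and the plasmacytoid sum 148 and 408 CPM, mostly Ly6d and Bst2. αβ T cell markers summed to 88.9 CPM in DN4 γδ+ and 40.8 CPM in DN3b γδ+, largely from Trac. Cd4 had 78 and 22 UMIs, Cd8a 116 and 64, and Cd8b1 594 and 204 (8.69 and 1.05 CPM). Cd44 was at 12.5 and 1.80 CPM in DN4 γδ+ and DN3b γδ+. The part of these cells in the results was not tested. The 2 libraries shared 43 barcodes, 24 of them kept in both, within the 18 to 93 that any 2 libraries of the series shared. Barcodes less than 100 genes above the gene limit numbered 38 and 40 in DN4 γδ+ and DN3b γδ+, and those left out by at most 100 genes 32 and 34.

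Of 5816 genes with at least 20 CPM in 1 library, 589 (10.1%) were at least 2-fold higher in DN4 γδ+ and 427 (7.34%) at least 2-fold lower. The largest ratios were mostly upward. At 4-fold there were 121 higher and 21 lower genes, and at 8-fold 40 higher and 4 lower. The median log2 ratio (DN4 γδ+ over DN3b γδ+) was 0.01 over all 5816 genes. Under TMM scaling (edgeR's trimmed mean of M values) all log2 ratios were shifted by −0.29, and the split became 342 higher and 888 lower genes. The direction of any gene or list with a log2 ratio between 0 and 0.29 therefore hangs on the scaling. Counts of list members below are to be read beside the 10.1% higher and 7.34% lower over all 5816 genes.

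**Figure D1:**
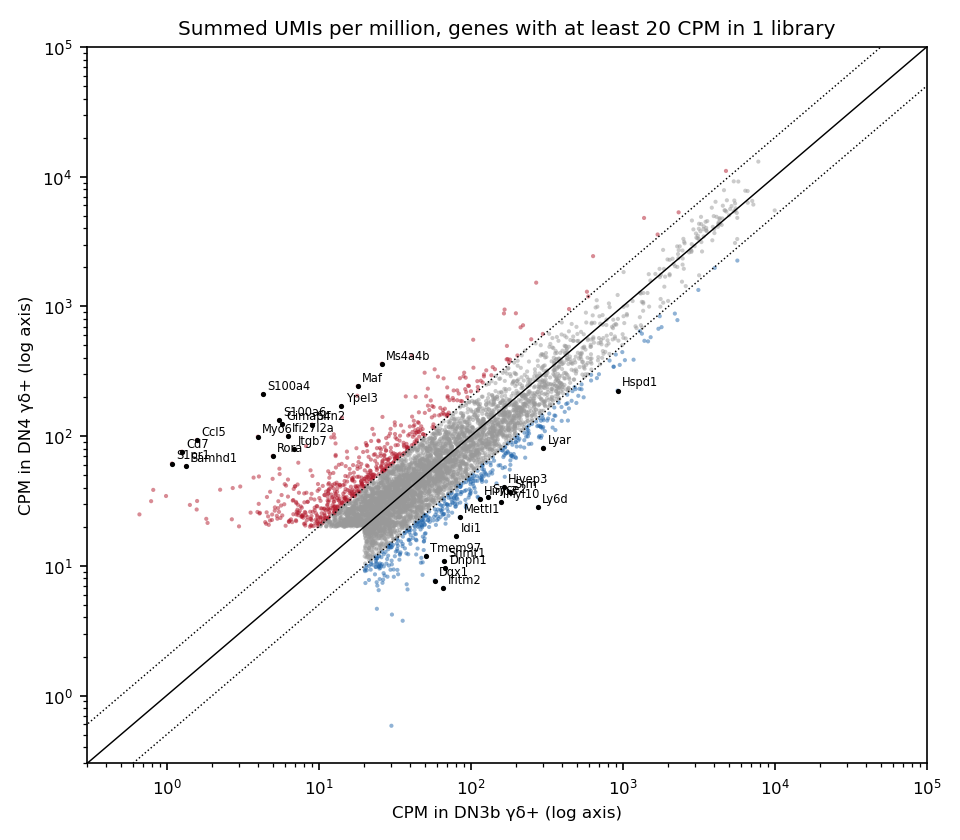
Summed level of each of the 5816 genes in DN3b γδ+ (x axis, CPM) and DN4 γδ+ (y axis, CPM), both on log axes, with the 15 highest and 15 lowest named ratios marked. The 589 genes at least 2-fold higher and the 427 at least 2-fold lower in DN4 γδ+ lie beyond the 2-fold lines.

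Genes of exit and homing were among those farthest upward. S1pr1, which encodes S1P1 (chr3:115710433-115715072), was at 1.08 CPM in DN3b γδ+ and 61.5 CPM in DN4 γδ+, a log2 ratio of 5.83 (95% interval 5.63 to 6.03). Cd7, an immunoglobulin-family receptor of lymphocytes from the surface list (chr11:121036747-121039418), was at 1.26 and 75.9 CPM (log2 ratio 5.91, 5.73 to 6.11). Of the 25 genes of an egress and homing list 20 reached 20 CPM, of which 12 were at least 2-fold higher in DN4 γδ+ and none 2-fold lower. The median log2 ratio was 1.49 over those 20, against 0.01 for all genes at that level, and 1.61 over all 25. Klf2, the activator of S1pr1, was at 58.0 and 327 CPM in DN3b γδ+ and DN4 γδ+ (log2 ratio 2.50). Foxo1, which acts upstream of Klf2, had a log2 ratio of 2.44. Ccr9, the receptor for the thymic and gut chemokine CCL25, was at 166 CPM in DN3b γδ+ and 883 CPM in DN4 γδ+ (log2 ratio 2.41). In WT DN3a it was at 181 CPM. The integrin genes Itgae and Itgb7 encode the 2 chains of the receptor for E-cadherin and had log2 ratios of 5.23 and 3.52, and Itgb2 had 1.38. Itgb1, the β1 integrin chain, was the only measured member of the list below 0, at −0.49, with 2 more below 0 under TMM. Rgs1, which damps signals of chemokine receptors, had a log2 ratio of 2.94.

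Shares of barcodes were compared after each barcode had been thinned to 4000 UMIs, which left out 456 barcodes of DN4 γδ+ and 857 of DN3b γδ+ that had fewer. S1pr1 then had a UMI in 0.546% (0.416 to 0.704) of DN3b γδ+ and in 19.5% (18.6 to 20.4) of DN4 γδ+ barcodes (1.34% and 28.7% before thinning). Thus about 4 in 5 DN4 γδ+ barcodes showed no S1pr1 UMI at this depth. S100a4, a calcium-binding protein of motile cells, had one in 1.64% and 31.4% of barcodes (4.35% and 41.8% before thinning), at summed levels of 4.31 and 210 CPM. Cd7 did so in 0.472% and 16.4% (1.12% and 24.0% before thinning). The added B lymphocytes served as background: among barcodes rich in B cell UMIs (B-like barcodes) with at least 4000 UMIs, 2 of 47 in DN4 γδ+ and 0 of 49 in DN3b γδ+ had a Cd7 UMI, and 4 of 47 and 0 of 49 an S100a4 UMI. For S1pr1 they give no background, since B cells express it (18 of 47 and 20 of 49).

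Within DN4 γδ+ S1pr1 lay with Klf2 but not with Ccr9. A Klf2 UMI was present in 82.0% (79.8 to 84.0) of the 1344 barcodes with an S1pr1 UMI and in 49.0% (47.6 to 50.3) of the others. A Ccr9 UMI was in 72.8% (70.3 to 75.1) and 80.6% (79.5 to 81.6). Cd7 lay with S1pr1 too, since 32.2% of the 1128 barcodes with a Cd7 UMI had one of S1pr1, against 17.0% of those without. Cd24a encodes the heat-stable antigen that falls as thymocytes mature. An S1pr1 UMI was seen in 11.2% of the 2063 barcodes with a Cd24a UMI and in 23.0% of those without it. Of 47 B-like barcodes of DN4 γδ+, 28 had a UMI of Klf2, 6 of Ccr9 and 20 of Cd24a. Summed Cd24a was 212 CPM in DN3b γδ+ and 112 CPM in DN4 γδ+ (log2 ratio −0.92), although both groups had been sorted as CD24+.

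Genes of the IL-17 program were higher in DN4 γδ+. Of 18 listed genes 9 reached 20 CPM, of which 7 were at least 2-fold higher and none 2-fold lower. The median log2 ratio was 2.11 over those 9, against 0.01 for all genes at that level, and 2.19 over all 18. Maf, the gene of c-Maf (chr8:115682942-115707794), was at 18.1 CPM in DN3b γδ+ and 243 CPM in DN4 γδ+ (log2 ratio 3.75, 3.70 to 3.80). Rora, a nuclear receptor gene, was at 4.99 and 70.4 CPM (3.82). The scavenger receptor family gene 5830411N06Rik had a log2 ratio of 3.51. Sox13, the factor that marks the branch early, was already at 70.6 CPM in DN3b γδ+ and stood at 203 CPM in DN4 γδ+ (1.52). Il17rb, a chain of the receptor for IL-25, was lower in DN4 γδ+, with a log2 ratio of −0.76. The cytokine gene Il17a itself was close to nothing, with 10 UMIs in DN3b γδ+ and 17 in DN4 γδ+. Il23r had 3 and 6 UMIs, and Ccr6 had 6 and 14. These members under 20 CPM were chosen for naming after their values had been seen.

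Genes of the IFN-γ and cytotoxic program were higher as well. Of 28 listed genes 27 had over 3 UMIs in 1 library, with a median log2 ratio of 2.36. Only 9 reached 20 CPM, 6 of them at least 2-fold higher in DN4 γδ+ and 1 at least 2-fold lower. Over those 9 the median was 1.69. Ccl5, a chemokine of killer lymphocytes (chr11:83525778-83530518), was at 1.58 and 93.4 CPM in DN3b γδ+ and DN4 γδ+ (log2 ratio 5.88, 5.72 to 6.05). Il2rb, which encodes CD122, was at 8.26 and 84.0 CPM (3.35). Gzma, the gene of granzyme A, was at 639 CPM in DN3b γδ+ and 2442 CPM in DN4 γδ+ (1.93). Before thinning the share of barcodes with a Gzma UMI was 79.5% in DN3b γδ+ and 79.3% in DN4 γδ+, and at 4000 UMIs it was 52.6% and 70.4%. Gzma UMIs were also in 17 of 49 and 21 of 47 B-like barcodes. Free RNA and doublets could not be told apart there, and no background was taken off these shares. Ccl4 was the listed gene at least 2-fold lower, at 44.3 and 21.4 CPM (−1.05). The master regulators were sparse: Eomes was at 0.226 and 9.35 CPM, and Tbx21 had 33 and 57 UMIs in all. Ifng did not follow the program, with 8.53 CPM in DN3b γδ+ and 6.95 CPM in DN4 γδ+. The NK receptor genes Klrd1 (0.211 and 13.1 CPM), Klra1 (0.118 and 9.81 CPM) and Klre1 (0.0154 and 7.05 CPM) were higher. These genes under 20 CPM were also chosen with their values seen, except Eomes.

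UMIs of the IL-17 and IFN-γ programs were spread unevenly over DN4 γδ+ barcodes. At 4000 UMIs, Maf had a UMI in 45.2% of DN4 γδ+ barcodes (3119 of 6897) and 7.24% of DN3b γδ+ barcodes (55.9% and 19.1% before thinning). In the same order Il2rb had one in 19.4% and 3.41% (30.3% and 11.03%). B-like barcodes gave 4 of 47 for Maf and 2 for Il2rb in DN4 γδ+, and 0 of 49 for each in DN3b γδ+. Within DN4 γδ+ a Sox13 UMI was in 67.9% (66.2 to 69.5) of barcodes with Maf and 25.4% (24.0 to 26.8) of the others. For 5830411N06Rik the shares were 65.6% and 25.6%. Il2rb went the other way, with 7.79% (6.87 to 8.79) of barcodes with Maf and 28.9% (27.5 to 30.4) of those without. Ccl5 was in 21.5% of the 1335 barcodes with Il2rb and 3.09% of the others. In DN3b γδ+, Il2rb was in 3.84% of the 782 barcodes with Maf and 3.37% of the rest.

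Gzma and Ccr9 went with Maf. Gzma is listed with the killer genes, and Maf was in 53.3% of DN4 γδ+ barcodes with a Gzma UMI and in 26.0% of those without, while Il2rb was in 13.3% and 33.8%. Of the 459 barcodes with Ccl5, 48.1% had Gzma, against 72.0% of the barcodes without Ccl5. Maf was in 54.8% of barcodes with Ccr9 and 9.21% of those without. S1pr1 barcodes were poorer in Maf, with 27.4% against 49.5% of the barcodes without S1pr1. They overlapped more with the other program, as 28.0% of barcodes with Il2rb had S1pr1 against 17.4% of those without. Genes listed together were thus not found together in every case. All these shares pool DN4 γδ+ barcodes with many and with few UMIs of division genes, which are counted below.

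**Figure D2:**
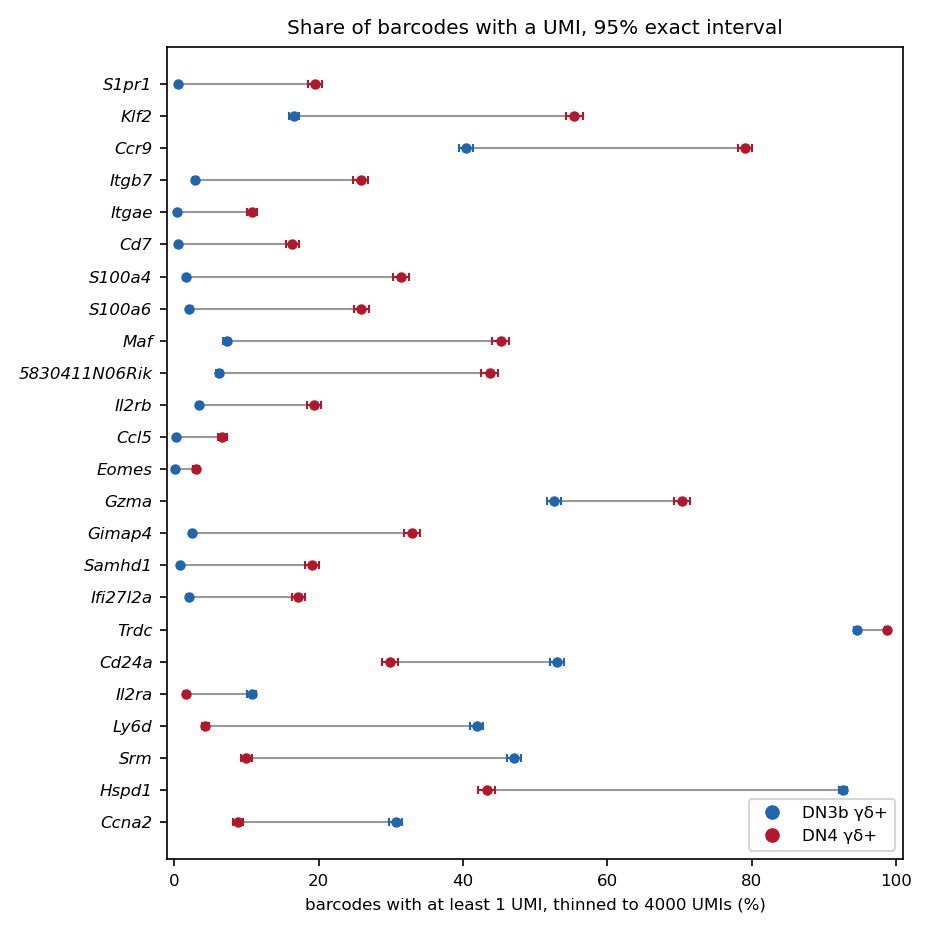
Share of barcodes with at least 1 UMI after thinning to 4000 UMIs (x axis, %) for single genes in DN3b γδ+ (blue) and DN4 γδ+ (red), with exact 95% intervals as bars. S1pr1 lies at 0.546% and 19.5%, Maf at 7.24% and 45.2%, and Ly6d on the opposite side at 41.9% and 4.25%.

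A helper-like list around PLZF, the factor of innate-like lymphocytes, held 11 genes, of which 4 reached 20 CPM and 1 of these was at least 2-fold higher in DN4 γδ+. The median over all 11 was 2.32 and over those 4 it was 0.16, and most members were at low levels. Zbtb16, which encodes PLZF, was at 2.06 and 10.3 CPM in DN3b γδ+ and DN4 γδ+ (log2 ratio 2.32). Sh2d1a, the adaptor SAP of these cells, was at 173 and 390 CPM (1.18). Tmem176b was lower in DN4 γδ+ at −0.66.

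Interferon-induced genes formed the list with the largest share of higher members at 20 CPM or more, among the 20 lists. Of 22 genes that reached 20 CPM 18 were at least 2-fold higher in DN4 γδ+ and none 2-fold lower. The median log2 ratio was 1.64 over those 22 and 1.91 over all 29. Samhd1, an enzyme that breaks down deoxynucleotides, was at 1.34 and 58.7 CPM (log2 ratio 5.45), the nuclear sensor genes Ifi206 and Ifi209 had 4.37 and 2.96, and Ifi27l2a was at 6.30 and 100.1 CPM (3.99). Bst2, an anchor that holds back viruses, was the exception below 0 at −0.16. In WT DN3a the list summed to 1585 CPM, above the 470 CPM of DN3b γδ+ and near the 1380 CPM of DN4 γδ+. Bst2 alone was at 550 CPM in WT DN3a, while Samhd1 was at 0.472 CPM and Ifi27l2a at 9.36 CPM. B cells express some of these genes too. In the B-like barcodes the list summed to 2506 CPM in the DN4 γδ+ and 1856 CPM in the DN3b γδ+ library, against 1380 and 470 CPM in kept barcodes. In the B-like barcodes Ifi27l2a had a log2 ratio of 0.67 (0.43 to 0.91) and Ifi206 one of 1.03 (0.16 to 1.95), and the part of this in the difference was not tested.

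Genes of quiescence were higher in DN4 γδ+. Of 23 quiescence genes with at least 20 CPM 16 were at least 2-fold higher in DN4 γδ+ and none 2-fold lower, with a median of 1.43 over 28. Below 0 were Cdkn2c (−0.37) and, under 20 CPM, Cdkn1a at 7.94 and 0.804 CPM (−3.30). Slfn2, which keeps T cells at rest, was at 9.04 and 123 CPM (log2 ratio 3.76), and Btg1, which slows growth, at 104 and 554 CPM (2.41). Mxd4, a partner of Max that opposes Myc, was at 12.6 and 103 CPM (3.03). The quiescence list summed to 2691 CPM in WT DN3a, 1392 CPM in DN3b γδ+ and 3254 CPM in DN4 γδ+. In WT DN3a Mxd4 was at 131 CPM, Btg1 at 345 CPM and Slfn2 at 42.3 CPM, each above its DN3b γδ+ level. Klf2, also listed there, was at 6.15 CPM in WT DN3a, below its DN3b γδ+ level. Gimap genes encode GTPases that lymphocytes need to survive. Gimap3 had a log2 ratio of 5.56, Gimap4 of 4.41, Gimap8 of 3.68 and Gimap6 of 2.63. They belong to a survival and death list, in which 9 of 15 tested genes were at least 2-fold higher and none 2-fold lower, with a median of 1.10 over 27. Bcl2, the survival factor, and Bax, its opponent, were both below 0 in that list, at −0.55 and −0.19.

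Genes of the cytoskeleton and its calcium-binding partners followed, with 12 of 21 at least 2-fold higher, none 2-fold lower and a median of 1.22 over 24. Among genes with at least 20 CPM S100a4 led with a log2 ratio of 5.61 (5.51 to 5.71), followed by the motor protein gene Myo6 with 4.64 and S100a6 with 4.59. The actin gene Actg1 (−0.09) and Crip1 (−0.27) were not higher. On the cell surface 10 of 23 genes were at least 2-fold higher and none 2-fold lower, with a median of 1.06 over 29. Cd2 and Cd226, which take part in adhesion, had log2 ratios of 2.42 and 2.44, and Cd52 of 2.50. Ms4a4b, a membrane protein of T cells, was at 26.0 and 362 CPM (3.80). The costimulatory receptor gene Cd28 was lower at −0.82.

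Trdc was at 1015 CPM in DN3b γδ+ and 1840 CPM in DN4 γδ+ (log2 ratio 0.86). In UMIs these were 197534 over 11663 kept barcodes and 125826 over 7353, which is nearly alike per barcode. Of 12 TCR and CD3 genes with at least 20 CPM 2 were at least 2-fold higher and none 2-fold lower, against 10.1% higher over all genes, with a median of 0.54 over 14 (0.24 in non-cycling barcodes). The 2 genes were Cd247, the ζ chain (1.10), and Fcer1g, the γ chain that can replace it, at 1.58 and 27.2 CPM (4.11). At 4000 UMIs only 0.611% of DN3b γδ+ and 3.001% of DN4 γδ+ barcodes had an Fcer1g UMI. B-like barcodes held Fcer1g at 25.5 CPM in DN3b γδ+ and 27.9 CPM in DN4 γδ+, and their part in its level was not tested. Cd3e had 0.11, which is below 0 under TMM, and Cd3g had −0.20. Among 24 proximal signalling genes 8 were at least 2-fold higher and none 2-fold lower, with a median of 0.55 over 26. Txk, a kinase of the Tec family, stood out at 14.2 and 139 CPM (3.29). The adaptor Grap2 had 1.64 and the kinase gene Prkcq 1.78. Lat (0.05) and Grb2 (0.11) sat near 0 and are below it under TMM. Syk, a kinase of early thymocytes, stayed under 20 CPM, at 5.69 and 3.42 CPM (−0.73). B-like barcodes held Syk at 177 CPM in DN3b γδ+ and 138 CPM in DN4 γδ+, and their part in its level was not tested.

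Genes induced within hours of TCR signalling lay on both sides of 0, with 14 of 20 above it and 10 under TMM. Of 13 with at least 20 CPM 1 was at least 2-fold higher and none 2-fold lower, against 10.1% and 7.34% over all genes, and the median of 0.27 over 20 lies just below 0 under TMM. The one was Etv5, at 71.0 and 146 CPM (log2 ratio 1.04). Egr1, an early transcription factor, was at 59.5 and 37.6 CPM (−0.66), Cd5, whose level follows TCR strength, at 130 and 81.8 CPM (−0.66), and Nab2 had −0.44. Nr4a2 (0.89) and Tnfrsf9 (0.87) lay on the other side. The activation marker Cd69 was at 145 and 197 CPM (0.44).

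The text of the study mentions by name 14 genes of its γδ TCR-induced signature, which it had chosen on these libraries. Here 10 of these 14 were at least 2-fold higher in DN4 γδ+ and none 2-fold lower, against 10.1% and 7.34% over all genes, with a median of 1.26. Cd52 and Klf2 led with 2.50 each. Pdcd1 (0.17) is below 0 under TMM, and Cd6 (−0.30) and Cd5 (−0.66) were lower.

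Among 21 factors of the T lineage 10 were at least 2-fold higher and none 2-fold lower, with a median of 0.62 over 25. Ikzf2 (Helios) was at 213 and 690 CPM (log2 ratio 1.69), Ikzf3 (Aiolos) had 1.67 and Bcl11b, which fixes T cell identity, 1.52. Id2, an inhibitor of E proteins, had 1.45, while Lef1, a partner of Wnt signals, was lower at −0.76 and the E protein gene Tcf3 at −0.22. Bcl11b was at 768 CPM in WT DN3a, 173 CPM in DN3b γδ+ and 496 CPM in DN4 γδ+. In WT DN3a Ikzf2 was at 213 CPM and Ikzf3 at 2.30 CPM. Of 15 cytokine receptor genes 7 were at least 2-fold higher and 1 was 2-fold lower, with a median of 1.08 over 27. Among those 15 Il2rb was followed by Il6st (1.96), the shared chain of the IL-6 family, Ifngr1 (1.72) and Tgfbr2 (1.62). The lower gene was Il2ra.

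The genes lowest in DN4 γδ+ relative to DN3b γδ+ included several of the earlier stage. Ly6d, a surface protein of early lymphoid cells (chr15:74762056-74763620), was at 2370 CPM in WT DN3a, 278 CPM in DN3b γδ+ and 28.3 CPM in DN4 γδ+ (log2 ratio −3.29, −3.36 to −3.23). Its share at 4000 UMIs was 41.9% in DN3b γδ+ and 4.25% in DN4 γδ+ (65.6% and 7.85% before thinning). B cells express Ly6d too, at 2592 CPM in the B-like barcodes of DN4 γδ+ and 2819 CPM in those of DN3b γδ+, and their part in its level was not tested. Ifitm2, an interferon-inducible membrane protein, was at 66.1 and 6.76 CPM (−3.29), and Myl10, a myosin light chain, at 159 and 30.99 CPM (−2.36). In WT DN3a the latter was at 1419 CPM. Ptcra, the pre-TCR α chain, stayed under 20 CPM in both libraries, at 7.36 and 1.02 CPM (−2.85), and Rag1, a subunit of the recombinase, at 3.28 and 0.980 CPM (−1.74).

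For the Notch, recombination and DN3 list the median log2 ratio over 15 genes was −0.55, with 10 below 0 and 5 above. Under 20 CPM those above were Cd8b1 (3.05), Dtx1 (0.94), Notch3 (0.40) and Heyl (0.39). Only 4 genes reached 20 CPM, of which Il2ra alone was at least 2-fold lower. Notch1, at 454 CPM in WT DN3a, was at 45.1 CPM in DN3b γδ+ and 40.2 CPM in DN4 γδ+ (−0.16). Hes1, a Notch target, was at 562, 44.1 and 46.7 CPM in that order (0.08, below 0 under TMM). Dntt, which adds bases at TCR joints, was at 1528, 189 and 177 CPM (−0.09). For these 3 genes the step between WT DN3a and DN3b γδ+ was the larger one.

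Genes of division were lower in DN4 γδ+. All 40 S phase genes reached 20 CPM and all had log2 ratios below 0, 34 of them at least 2-fold lower in DN4 γδ+, with a median of −1.30. Exo1, a nuclease of replication and repair, was at 33.4 and 8.61 CPM (−1.95), Ccne2, a cyclin of S phase entry, had −1.78 and the uracil glycosylase gene Ung −1.74. Of 38 G2M genes 7 were at least 2-fold lower and none 2-fold higher, against 7.34% and 10.1% over all genes, with a median of −0.82 over 42. Aurkb, the kinase of the chromosomal passenger complex, was at 86.2 and 35.7 CPM (−1.27), Ccna2, cyclin A2, at 123 and 53.0 CPM (−1.22), Cdca8, borealin, at 226 and 106 CPM (−1.09) and the checkpoint kinase gene Bub1 at 39.4 and 19.3 CPM (−1.03). Smc4, a condensin subunit, was at 434 and 438 CPM (0.01, below 0 under TMM). In kept barcodes the S phase list summed to 5444 CPM in DN3b γδ+ and 2236 CPM in DN4 γδ+, and the G2M list to 7916 and 4666 CPM. The added B cells differed in the same direction. In B-like barcodes the sums were 1636 and 666 CPM for S phase and 2441 and 802 CPM for G2M, in the same order. The part of this in the difference was not tested.

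The S phase and G2M genes were also counted per barcode. At 4000 UMIs the median barcode had 48 UMIs of both lists in DN3b γδ+ and 8 in DN4 γδ+. A limit of 20 UMIs was set at the 95th percentile of B-like barcodes, taken as not dividing. It was passed by 9857 of 10806 DN3b γδ+ barcodes (91.2%, 90.7 to 91.7) and by 1372 of 6897 of DN4 γδ+ (19.9%, 19.0 to 20.9). In B-like barcodes 5 of 49 and 0 of 47 passed, so that B-like barcodes of the DN3b γδ+ library reached the limit too. Within 2 UMIs of the limit lay 4.36% of DN3b γδ+ and 2.44% of DN4 γδ+ barcodes. Barcodes above the limit are called cycling here and the others, with at most 20 UMIs, non-cycling. Of the non-cycling barcodes 438 of 949 in DN3b γδ+ and 234 of 5525 in DN4 γδ+ had 16 to 20 UMIs. This limit cuts a range and does not define a cell type.

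**Figure D3:**
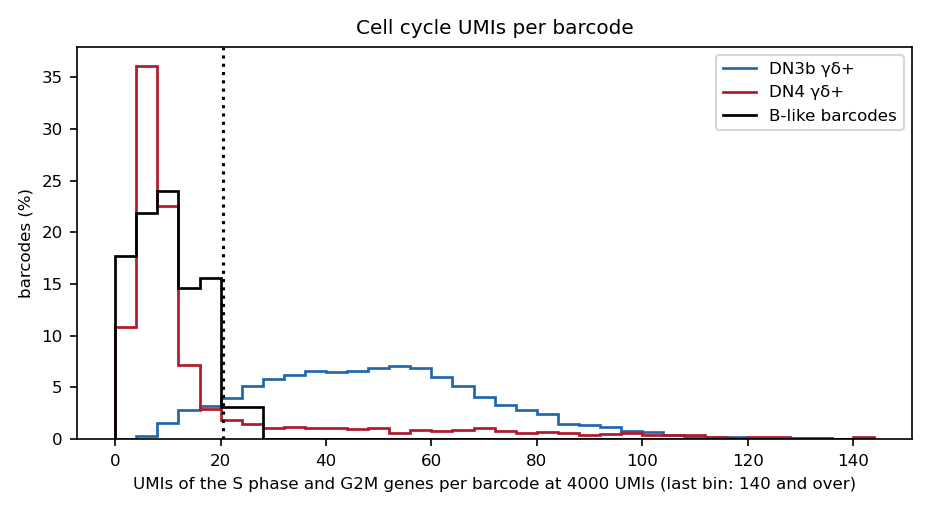
Distribution of UMIs of the S phase and G2M genes per barcode at 4000 UMIs (x axis) as a percentage of barcodes (y axis) in DN3b γδ+ and DN4 γδ+, with the dotted line at the limit of 20 UMIs. DN4 γδ+ peaks at 4 to 7 UMIs with a long tail, and 91.2% of DN3b γδ+ lies beyond the line.

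Transcripts of many biosynthesis genes were lower in DN4 γδ+. In a list of Myc and ribosome biogenesis genes 18 of 27 were at least 2-fold lower and 2 at least 2-fold higher, with a median of −1.18 over 32. The 2 higher genes, Mxd4 and Mxd1 (1.07), encode antagonists of Myc. Nop58, a core protein of box C/D particles that modify ribosomal RNA, was at 361 and 111 CPM (log2 ratio −1.70). Nolc1, a nucleolar chaperone, was at 181 and 55.2 CPM (−1.71), and Gnl3, nucleostemin, at 162 and 56.7 CPM (−1.52). Srm, spermidine synthase, was at 182 and 37.3 CPM (−2.29), and Hspd1, the mitochondrial chaperone HSP60, at 926 and 224 CPM (−2.04). Of 25 genes of nutrient uptake and metabolism 9 were at least 2-fold lower and none 2-fold higher, with a median of −0.80 over 32. Genes of sterol synthesis among them were Idi1 at 80.4 and 16.9 CPM (−2.25), Cyp51 at 49.1 and 13.2 CPM (−1.89) and Sqle at 26.8 and 8.78 CPM (−1.61). Slc7a5, an amino acid transporter, had −1.67. Hk1 (0.50) and Scd2 (0.36) lay above 0. Gpi1, a glycolytic enzyme, had 0.10 and is below 0 under TMM. Dnph1 and Shmt1, both of nucleotide metabolism, were at 68.1 and 9.61 CPM (−2.82) and at 66.6 and 10.8 CPM (−2.62). Dqx1 was at 58.1 and 7.71 CPM (−2.91), but once the level in B-like barcodes was subtracted its ratio was 0.14. In B-like barcodes of DN3b γδ+ and DN4 γδ+ the Myc and ribosome list summed to 3654 and 2738 CPM. The metabolism list summed to 2468 and 1699 CPM there, and the part of this in the differences was not tested.

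Promoter windows of 250 bases before the transcription start were searched for 9 motifs, since genes of division and biosynthesis were lower as groups. RefSeq windows (GRCm38.p6) matched 4682 of the 5816 genes, 461 of the 589 higher and 333 of the 427 lower ones, and 103 of the 148 named genes. The letters were searched on both strands, and a match is no proof of a site. Shares are of genes with a window, and a gene with several starts counted if any of its windows matched. The E2F strings TTTCCCGC or TTTGGCGC were in 0.217% of higher genes, 7.81% of lower genes and 3.80% of all tested genes. They were in 26.7% of S phase genes and 15.4% of the Myc and ribosome list. The strings CCAAT and TTTGAA (the cell cycle homology region, CHR) were in 77.1% and 37.1% of G2M genes, against 40.7% and 13.2% of tested genes. They were not particular to division. CCAAT was in 58.3% of quiescence and 58.8% of surface genes, and CHR in 36.0% of survival and death and 34.8% of interferon-induced genes. Egress genes had 12.5% for each string. The RUNX string TGTGGTT was in 7.81% of higher, 2.10% of lower and 38.1% of γδ1 and cytotoxic genes (8 of 21), against 3.82% of tested genes. It was also in 3 of 19 cytoskeleton, 3 of 23 interferon-induced and 2 of 17 surface genes, and in 0 of 14 γδ17 genes. The γδ1 and cytotoxic genes had a median of 46.4% G and C in their windows, against 61.6% for tested genes. The part of this in the matches was not tested. The E box CACCTG was in 22.1% of higher, 12.6% of lower and 16.2% of tested genes. The CHR string, 6 letters long, and the 5 letters of CCAAT are common by their length, with 18.3% and 37.5% of 27025 genes with a window. The other motifs searched were TCF/LEF (CTTTGAT), MAF (TGCTGAC), T box (AGGTGTGA) and KLF (CCACACCC). MAF was in 21.4% (3 of 14) of γδ17 genes and in 3.31% of tested genes. It was not particular to the γδ17 list, being also in 3 of 21 γδ1 and cytotoxic genes and 3 of 23 interferon-induced genes.

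The windows below show these strings in 6 genes of the text, chosen after the matches were seen, 5′ to 3′ on the gene's strand with the matched strings in capitals. Nop58 (chr1:59684756-59685005, plus strand) holds an E2F string 108 bases before the start, and Nolc1 (chr19:46075597-46075846, plus strand) an E2F string at 117 bases. Cdca8 (chr4:124936918-124937167, minus strand) holds 3 CCAAT strings within 85 bases of the start. Bub1 (chr2:127831860-127832109, minus strand) holds CCAAT strings at 68 and 42 bases and a MAF string at 179. Gzma (chr13:113100982-113101231, minus strand) holds a RUNX string at 51, a CHR string at 69 and E boxes at 79 and 135 bases. Ccr9 (chr9:123766961-123767210, plus strand) holds an E box at 85 bases.
Nop58: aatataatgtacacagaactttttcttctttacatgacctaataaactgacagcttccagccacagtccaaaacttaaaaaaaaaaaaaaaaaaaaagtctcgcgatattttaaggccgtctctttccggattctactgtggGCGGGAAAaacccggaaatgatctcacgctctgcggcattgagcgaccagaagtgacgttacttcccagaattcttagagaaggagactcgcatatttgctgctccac
Nolc1: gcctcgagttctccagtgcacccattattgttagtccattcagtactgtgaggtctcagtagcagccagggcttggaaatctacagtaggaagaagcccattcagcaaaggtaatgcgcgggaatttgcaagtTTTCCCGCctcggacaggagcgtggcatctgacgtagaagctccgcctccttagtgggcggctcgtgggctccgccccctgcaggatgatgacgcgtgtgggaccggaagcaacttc
Cdca8: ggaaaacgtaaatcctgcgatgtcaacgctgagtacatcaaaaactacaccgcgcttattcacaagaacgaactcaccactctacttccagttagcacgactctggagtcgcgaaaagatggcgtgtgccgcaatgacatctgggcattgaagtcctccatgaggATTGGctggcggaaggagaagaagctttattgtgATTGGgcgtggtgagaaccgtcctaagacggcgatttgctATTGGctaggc
Bub1: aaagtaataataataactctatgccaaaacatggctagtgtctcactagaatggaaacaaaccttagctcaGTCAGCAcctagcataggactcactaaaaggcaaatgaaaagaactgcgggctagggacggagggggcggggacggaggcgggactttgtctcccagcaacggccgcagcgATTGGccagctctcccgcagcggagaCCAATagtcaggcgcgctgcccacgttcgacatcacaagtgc
Gzma: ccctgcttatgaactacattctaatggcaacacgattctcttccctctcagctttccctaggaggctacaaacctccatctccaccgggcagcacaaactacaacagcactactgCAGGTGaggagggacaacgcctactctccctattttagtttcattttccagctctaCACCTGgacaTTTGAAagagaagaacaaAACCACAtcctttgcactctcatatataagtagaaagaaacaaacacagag
Ccr9: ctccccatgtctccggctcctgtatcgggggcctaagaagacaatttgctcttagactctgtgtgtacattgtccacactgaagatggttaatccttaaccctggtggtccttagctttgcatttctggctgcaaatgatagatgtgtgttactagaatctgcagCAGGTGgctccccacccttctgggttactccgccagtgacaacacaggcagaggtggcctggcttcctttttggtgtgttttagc

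Nop58 and Nolc1 stand for the biosynthesis genes lower in DN4 γδ+, Cdca8 and Bub1 for those of division, and Gzma and Ccr9 for those higher in DN4 γδ+. Their levels are given above, and no binding was measured.

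**Figure D4:**
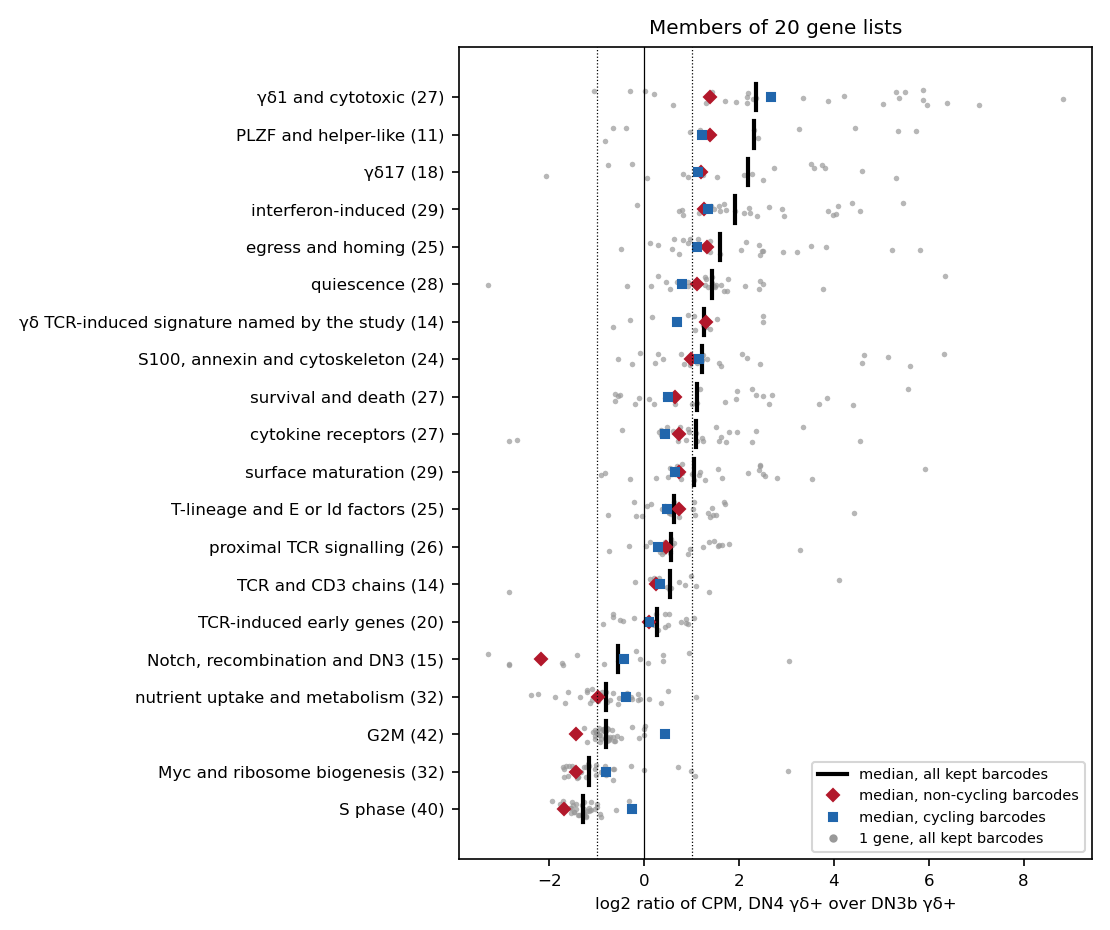
Log2 ratio of CPM, DN4 γδ+ over DN3b γδ+ (x axis), for the members of 20 gene lists (y axis, number of genes in brackets), with a grey point for each gene, a black bar for the list median, a red diamond for the median in non-cycling and a blue square for the median in cycling barcodes. The interferon-induced list has its median at 1.91, and the S phase list at −1.30 with all 40 genes below 0.

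The comparison was repeated within the non-cycling barcodes, 5525 of DN4 γδ+ and 949 of DN3b γδ+. These were not matched for division: the S phase list had a median of −1.69 among them, with 34 of 40 genes at least 2-fold lower in DN4 γδ+, and the G2M list −1.45, with 28 at least 2-fold lower. Their median UMIs were 6669 and 8670, closer than over all barcodes. Of 5838 genes 457 (7.83%) were at least 2-fold higher in DN4 γδ+ and 492 (8.43%) at least 2-fold lower. Of the 589 higher genes 368 (62.5%) were also 2-fold higher here, and of the 427 lower genes 399 (93.4%) were also 2-fold lower. The medians of 4 lists of higher genes were nearer to 0, with 1.19 in place of 2.19 for the IL-17 list, 1.39 in place of 2.36 for the γδ1 list, 1.33 in place of 1.61 for egress and 1.26 in place of 1.91 for interferon-induced genes. S1pr1 had a log2 ratio of 3.405 (7.25 and 76.8 CPM), Cd7 of 2.91, S100a4 of 3.30 and Maf of 2.41. The Myc and ribosome list stayed lower with a median of −1.44, as did metabolism with −0.97. The division genes were apart here too, and their part in these values was not tested.

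The genes of the DN3 stage were farther apart in the non-cycling barcodes. Ly6d was at 946 CPM in non-cycling DN3b γδ+ and 13.8 CPM in non-cycling DN4 γδ+ (log2 ratio −6.10). The Notch, recombination and DN3 list had a median of −2.18. Il2ra was at 103 and 4.13 CPM, Ptcra at 44.9 and 0.600 CPM and Rag1 at 33.2 and 0.360 CPM. Notch1 (−1.12), Hes1 (−0.94) and Dntt (−1.29), which were near 0 over all barcodes, were lower here.

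The converse comparison, within cycling barcodes, was added after the values had been seen. It held 1372 barcodes of DN4 γδ+ and 9857 of DN3b γδ+, with medians of 17292.5 and 17448 UMIs. Of 5498 genes 185 (3.36%) were at least 2-fold higher in DN4 γδ+ and 59 (1.07%) at least 2-fold lower. Of the 589 higher genes 232 (39.4%) were 2-fold higher here, and of the 427 lower genes 60 (14.1%) were 2-fold lower, while 25 of the 427 had a ratio above 0. Those 60 include genes under 20 CPM among cycling barcodes. Cd7 (5.97), S1pr1 (5.61) and S100a4 (5.15) kept log2 ratios above 5 here. Il2rb had 3.27. Maf was less far apart, with a log2 ratio of 1.72 (15.5 and 51.0 CPM). Within DN4 γδ+, cycling and non-cycling barcodes held Maf at 51.0 and 348 CPM, Ccr9 at 429 and 1143 CPM and Gzma at 1951 and 2782 CPM. For Il2rb the levels were 76.5 and 85.6 CPM. The shares of genes found together pooled both kinds of barcode, and the part of cycling in them was not tested. The Myc and ribosome list had a median of −0.81 and metabolism one of −0.39. The sterol gene Cyp51 (−1.10) and Srm (−1.57) remained at least 2-fold lower. Sqle (−0.88), Slc7a5 (−0.79), Nop58 (−0.97) and Gnl3 (−0.98) fell short of 2-fold. Aurkb (0.03), Ccna2 (0.10), Cdca8 (0.20) and Bub1 (0.28) had ratios above 0. The limit itself uses those G2M genes.

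**Figure D5:**
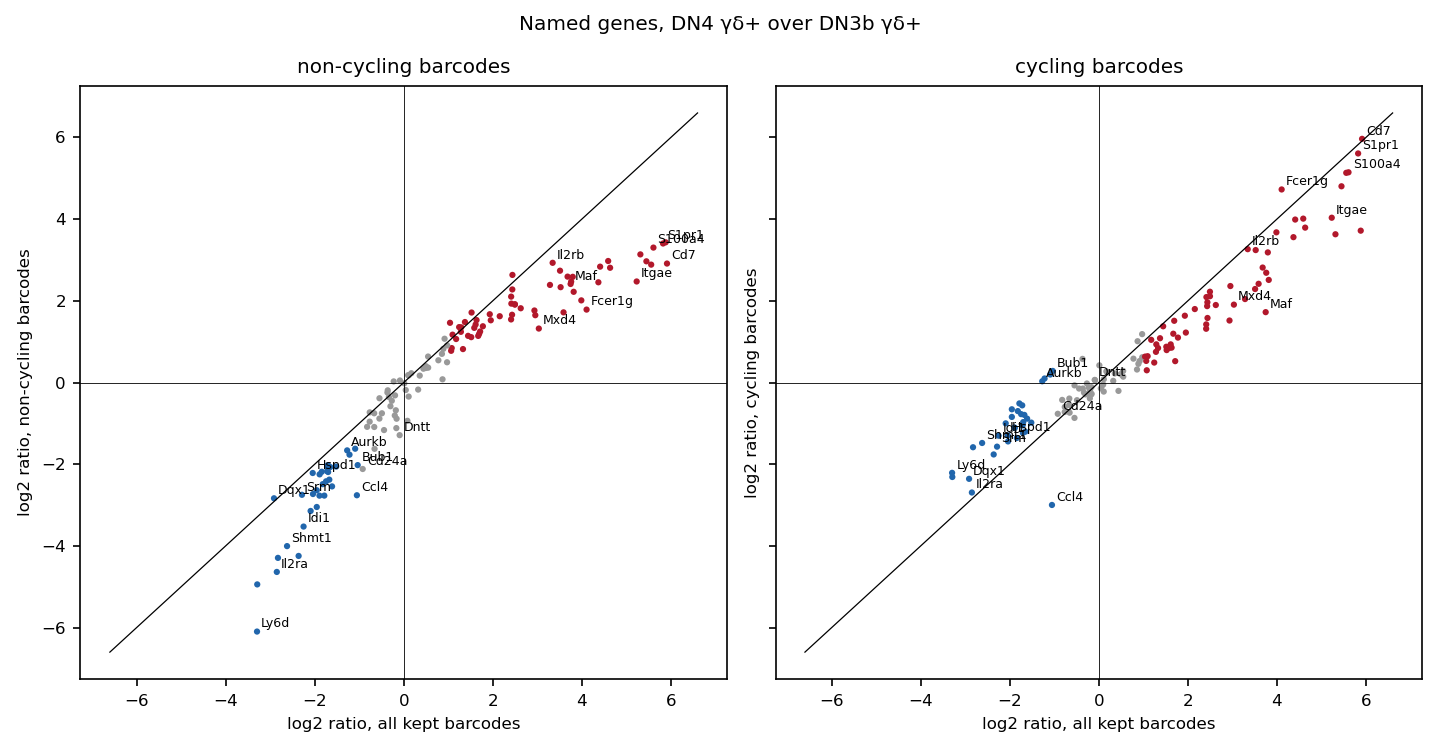
Log2 ratio of each named gene over all kept barcodes (x axis of both panels) against its ratio in non-cycling barcodes and in cycling barcodes (y axes). S1pr1 and Cd7 lie near 5.8 over all barcodes, at 3.405 and 2.91 in non-cycling and at 5.61 and 5.97 in cycling barcodes, while Ly6d goes from −3.29 to −6.10 and −2.21.

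Early and late genes were also counted together in barcodes. A set of 4 early genes (Rag1, Ptcra, Il2ra and Ly6d) and one of 6 late genes (S1pr1, Cd7, S100a4, Gimap4, Samhd1 and Itgb7), both put together after their values had been seen, were counted in each barcode at 4000 UMIs, with at least 2 UMIs taken as positive. The late genes are among those with the highest ratios, so the counts describe the barcodes and test nothing. B-like barcodes give no background here, as they hold members of both sets, with Ly6d in 49 of 49 and S1pr1 in 20 of 49 of them in DN3b γδ+. Of the 949 barcodes 468 were positive for the early set alone, 98 for the late set alone, 5 for both and 378 for neither. In cycling DN3b γδ+ barcodes 2309 of 9857 were positive for the early set alone and 71 for the late set alone, with 7 for both. In non-cycling DN4 γδ+ barcodes 21 of 5525 were positive for the early set alone, 3072 for the late set alone and 36 for both. In cycling DN4 γδ+ barcodes those counts were 45, 457 and 6 of 1372. Late-positive barcodes thus made up 10.9% of non-cycling and 0.791% of cycling DN3b γδ+ barcodes.

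Summed levels of the early genes in non-cycling DN3b γδ+ lay between those of cycling DN3b γδ+ and of WT DN3a. For Ly6d the levels were 245 CPM in cycling DN3b γδ+, 946 CPM in non-cycling DN3b γδ+ and 2370 CPM in WT DN3a, and for Il2ra 26.7, 103 and 612 CPM. In contrast Maf, at 12.0 CPM in WT DN3a, was at 15.5 CPM in cycling and 65.4 CPM in non-cycling DN3b γδ+. What set the late-positive barcodes of DN3b γδ+ apart was not tested.

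Far fewer genes were apart between the γδ− libraries of the same stage names. The pairs are not alike, since the study sorted both γδ− groups as CD71+ and describes both as mostly dividing. On the γδ+ side 91.2% of DN3b γδ+ and 19.9% of DN4 γδ+ barcodes passed the cycling limit. Between WT DN3b γδ− and WT DN4 γδ− 49 (0.843%) of the same 5816 genes, filtered on their γδ+ levels, were at least 2-fold higher at DN4 and 47 (0.808%) at least 2-fold lower. Of these 49, 27 were among the 589 higher in DN4 γδ+, which is 55.1% of the smaller and 4.58% of the larger list. Over all 5816 genes 10.1% were among the 589 and 7.34% among the 427. Of the 47 lower genes 8 were among the 427 and 10 among the 589. Of the 49, 1 was among the 427. S1pr1 was at 0.0414 and 0.480 CPM in WT DN3b γδ− and WT DN4 γδ−, and S100a4 at 0.107 and 3.002 CPM. Ly6d stood at 783 and 691 CPM, Nop58 at 322 and 359 CPM and Cdca8 at 259 and 216 CPM. The difference between the γδ+ and the γδ− step was not tested.

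Variable segments of the γ and δ chains were counted with the caution that reads from the end of a transcript seldom reach them. Trgv2 was at 149 and 202 CPM in DN3b γδ+ and DN4 γδ+ (log2 ratio 0.43), Tcrg-V1 at 28.6 and 38.9 CPM (0.44) and Tcrg-V4 at 12.9 and 35.9 CPM (1.48). The δ segments Trdv2-2 (4.52 and 21.1 CPM, 2.23) and Trdv5 (8.16 and 20.5 CPM, 1.33) were higher in DN4 γδ+. Tcrg-V5 and Tcrg-V6 had at most 45 UMIs in either library. Segment names are as in the files, and segments of near-identical sequence could share reads.

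As the thymi came from both sexes, barcodes were split by Xist and Y-linked transcripts. Those with Xist alone numbered 5909 in DN3b γδ+ and 3704 in DN4 γδ+, and those with Y-linked UMIs alone 3105 and 2361. Of the 589 higher genes 533 were at least 2-fold higher in both subsets, and of the 427 lower genes 376 were 2-fold lower in both. For S1pr1 the log2 ratios were 5.83 and 5.72. In the B-like barcodes, which came from the same added cells in both libraries, 33 of 3028 genes with enough UMIs (1.09%) were at least 2-fold higher in DN4 γδ+ and 209 (6.90%) at least 2-fold lower, with a median of −0.16. Among the kept barcodes 287 and 179 of those 3028 genes were higher and lower. The lower genes of the B-like barcodes were therefore not rare, and free RNA of the thymocytes was not removed from any level above.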

How the data were processed

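The authors deposited UMI counts per gene and barcode (10x 3' v3), aligned to a version of mm10 that also holds the Trdc reporter allele of the Lat-/- mice (counted separately from Trdc), and limited to barcodes called as cells. The submitters' processing notes name Cell Ranger 5.0.1, R 3.6.3 and Seurat 3.1.5, while the matrix headers name Cell Ranger 4.0.0. The counts were neither scaled nor corrected, and 32235 of 32286 features were given positions from GENCODE vM21.

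Members, gene lists and named genes were chosen with earlier results of these data known. Named genes are the 15 highest and 15 lowest log2 ratios (at least 50 CPM in 1 library and 10 UMIs in each, without mt-, Rpl, Rps and B cell marker genes), up to 4 highest and 4 lowest members of each of 20 lists at 20 CPM or more, members that the study names, and genes used for the sort. Counts were summed per library and divided by the total. Intervals are exact (Poisson, Clopper-Pearson, conditional binomial) at 95%. A count of 0 entered ratios as 3 counts per library. List medians cover genes with over 3 UMIs in 1 library, while the median of 0.01 over all genes covers those with at least 20 CPM. Barcodes were B-like from 10 UMIs of B cell markers upward, if T cell markers had under 10. Doublets were not called, and leaving out the 8% of barcodes with most UMIs served as an alternative. Python 3.11.15 (scipy 1.17.1, numpy 2.4.6, pandas 2.3.3) and TMM of edgeR 4.0.16 in R 4.3.3 were used, and the calculations were tested on simulated data. With 1 library per group no model was fitted. Alternatives varied the scaling, barcode limits, depth, cycling and sex subsets and filters. Some named genes are not reported here.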

Additional observations from a re-analysis of the deposited data

Results flagged for a closer look

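Cd53 and Cpa3, both of the signature that the study chose, had ratios of opposite sign in the γδ+ and the γδ− step from DN3b to DN4. Cd53, a tetraspanin, was at 140 and 340 CPM in DN3b γδ+ and DN4 γδ+ (log2 ratio 1.28) and at 7.61 and 3.67 CPM in WT DN3b γδ− and WT DN4 γδ− (−1.05). Cpa3, a carboxypeptidase of mast cells also seen in thymocytes, was at 87.9 and 186 CPM (1.08) and at 2.42 and 0.774 CPM (−1.64). The γδ− levels were low, and the difference between the steps was not tested.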

How the results depend on the processing

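With 1 library per group the results show the spread over barcodes and settings, never over animals. No paired analysis was possible because each group had 1 library. The total of genes at least 2-fold higher, 589 as reported, was 342 with TMM, 185 in cycling barcodes alone (a setting chosen after seeing the data), 1200 with a filter at 5 CPM and 3938 with no filter. The total of lower genes, 427 as reported, was 888 with TMM, 59 in cycling barcodes, 1403 with no filter, 716 without the 8% of barcodes with most UMIs, 718 by the mean of each barcode's own CPM and 813 with the B-like level subtracted. The G2M median (−0.82) was −1.11 with TMM, −0.75 with mt-, Rpl and Rps genes left out of the total, −1.45 in non-cycling and 0.44 in cycling barcodes, −0.54 with at least 2000 genes and at most 5% mitochondrial UMIs, −1.71 without the 8%, −0.68 in Xist barcodes, −1.497 by mean CPM and −0.49 after subtraction. The IL-17 median (2.19) was 1.19 in non-cycling, 1.12 in cycling barcodes and 1.40 under the stricter limits. The γδ1 median (2.36) was 1.39 in non-cycling barcodes and 3.24 after subtraction. The egress median (1.61) was 1.32 with TMM, 1.67 without mt-, Rpl and Rps genes, 1.33 in non-cycling and 1.11 in cycling barcodes, 1.41 under the stricter limits, 1.75 without the 8%, 1.51 in Xist and 1.54 in Y-linked barcodes, 1.78 by mean CPM and 2.54 after subtraction. Of 92 named genes at least 2-fold apart, 92 kept their direction in each planned setting but the subtraction, where 71 had a value and 70 kept it, Dqx1 being the exception at 0.14. These 92 had been chosen for their ratios, so that keeping the direction was largely set in advance. TMM, a shift of −0.29 for every gene, could reverse none of them. In cycling barcodes 88 kept it and 63 were still 2-fold apart. The reversed genes were Aurkb (0.031), Ccna2 (0.10), Cdca8 (0.20) and Bub1 (0.28). The causes were not tested, beyond the cycling limit, which is built from the S phase and G2M genes.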

Other observations

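Genes outside the lists were looked at after their values had been seen. Gm4632 was the gene farthest down, at 30.1 CPM in DN3b γδ+ and 0.585 CPM in DN4 γδ+ (log2 ratio −5.69), and Bex6 was at 35.7 and 3.77 CPM (−3.24). Among the most abundant transcripts the chaperone genes Hsp90ab1 (5686 and 2257 CPM, −1.33) and Hsp90aa1 (2294 and 784 CPM, −1.55) were lower in DN4 γδ+, while Tmsb4x, the actin-binding thymosin β4, was higher at 4786 and 11083 CPM (1.21).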
